A study of Mus musculus with 25 samples.

Results

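The proteasome genes of the gastrocnemius were examined mouse by mouse in thymol-treated and control animals. All genes whose symbol starts with Psma, Psmb, Psmc, Psmd, Psme or Psmf followed by a digit were taken, which gave 43 of the 8829 genes of the table. By role these were 14 genes of the 20S core, 17 of the 19S cap, 3 chaperones that assemble the base of the cap, 3 immunoproteasome beta subunits, 4 activators or inhibitors, and 2 genes that match by name alone. Those 2 are Psme3ip1, which encodes a protein that binds an activator and is no subunit, and Psme2b, a near copy of the activator gene Psme2. Psme2 itself, the testis subunit Psma8 and the thymus subunit Psmb11 were not analysed here.

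The proteasome degrades proteins that carry a ubiquitin chain. Its 20S core is a barrel of alpha rings, which gate the entry, and beta rings, of which Psmb5, Psmb6 and Psmb7 cut the substrate. The 19S cap recognises ubiquitin, removes it and unfolds the substrate with a ring of ATPases, and other caps such as the PA28 activator (Psme1, Psme2) or PA200 (Psme4) can take its place. Under interferon the cutting subunits are replaced by Psmb8, Psmb9 and Psmb10, which favours peptides for antigen presentation. In skeletal muscle the ubiquitin ligases atrogin-1 (Fbxo32) and MuRF1 (Trim63) mark proteins for this route during atrophy, and the transcription factor Nrf1 (Nfe2l1) is known to raise subunit genes together when proteasome activity is short.

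The mice were male SAMP8, a strain with accelerated senescence, and all groups compared here carried this background. From 8 months of age, and for 3 months according to the labels, they were gavaged with corn oil. In Control (n = 11 mice) the oil was given alone. In Thymol (n = 14 mice) it held thymol, a phenolic compound of thyme, at 20 mg/kg per dosing day. According to the paper, gavage was given on most days of each week, not on all. One library per mouse was made with a 3′ end protocol, so that a count does not grow with transcript length and levels of different genes can be set side by side as log2 CPM, the log2 of counts per library size after scaling. Mice are named by group and the last number of their label.

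Depth ranged from 4463818 to 9463418 reads per mouse. The proteasome genes took 0.373% to 0.449% of these, or 18686 to 39885 reads. The 9 fast fibre markers averaged 12.9 to 13.4 log2 CPM in every library, matching the muscle label. The 7 slow fibre markers averaged 2.71 log2 CPM in Thymol 20 and 5.99 (Thymol 3) to 10.0 (Thymol 6) in the other mice, the 8 adipocyte markers 2.14 to 7.45, and the 12 leukocyte markers 2.65 to 5.18. The last 12 were those of 22 listed leukocyte markers held by the table, from which low genes had been filtered. Their means ran from 2.10 (Lcp1) to 5.24 (Lyz2). The 3 libraries with the lowest median correlation to the others were Control 18 (0.948), Thymol 20 (0.951) and Control 19 (0.953). Results are given with all 25 mice, and the main counts also without these 3. In whole muscle, fewer cells of a type and less RNA per cell cannot be told apart.

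Transcripts of the proteasome spanned a wide range of levels, from 2.48 log2 CPM for Psmb9 to 8.12 for Psmd4, the ubiquitin receptor of the 19S base. The 17 genes of the 19S cap ran from 5.31 (Psmd14, the deubiquitinase of the lid) to 8.12, with a median of 7.32. The 14 genes of the 20S core ran from 3.56 (Psma5) to 7.50 (Psma7), with a median of 6.12. Within the alpha ring, whose members are present in equal number in the particle, the transcript levels of Psma7 and Psma5 were 181 and 11.8 CPM. In the beta ring Psmb4 (7.16) and Psmb1 (7.06) were high, and Psmb3 (4.34) and Psmb2 (3.90) were low. The ATPases ran from 5.86 (Psmc4) to 7.95 (Psmc3), and the 3 assembly chaperones Psmd5, Psmd10 and Psmd9 from 3.32 to 3.66. Among the activators and inhibitors, Psme4 stood highest at 7.85, above Psme1 (5.36) and Psme3 (5.10), while Psmf1, which encodes the inhibitor PI31, had 3.46.

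Neighbours in this order were mostly not separable. Of 42 neighbouring pairs, 35 differed by less than 1 SD of the difference over mice, and 1 pair, Psma1 above Psme3ip1, kept its order in all 25 mice. Some of the low levels belonged to genes whose 3′ ends resemble other genes. Over the last 400 bases of the transcripts in GENCODE M21, 23 of the 43 genes shared no 31-base word with another gene. The shares were 74.9% for Psmb3, 71.1% for Psma5, 68.4% for Psmb5 and 75.7% for Psme2b, mostly with pseudogenes, or with Psme2 for the last, so reads of these genes could have been split or dropped in counting. In all, 10 of the 43 genes shared over 20%. Among these were genes of high level, Psmd1 (74.3%, 7.59 log2 CPM), Psmd2 (43.7%, 7.36) and Psmc1 (26.8%, 7.55). Of the low genes, Psmb2 and the chaperones Psmd5 and Psmd10 shared none. The part of shared ends in the levels was not tested.

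**Figure D1:**
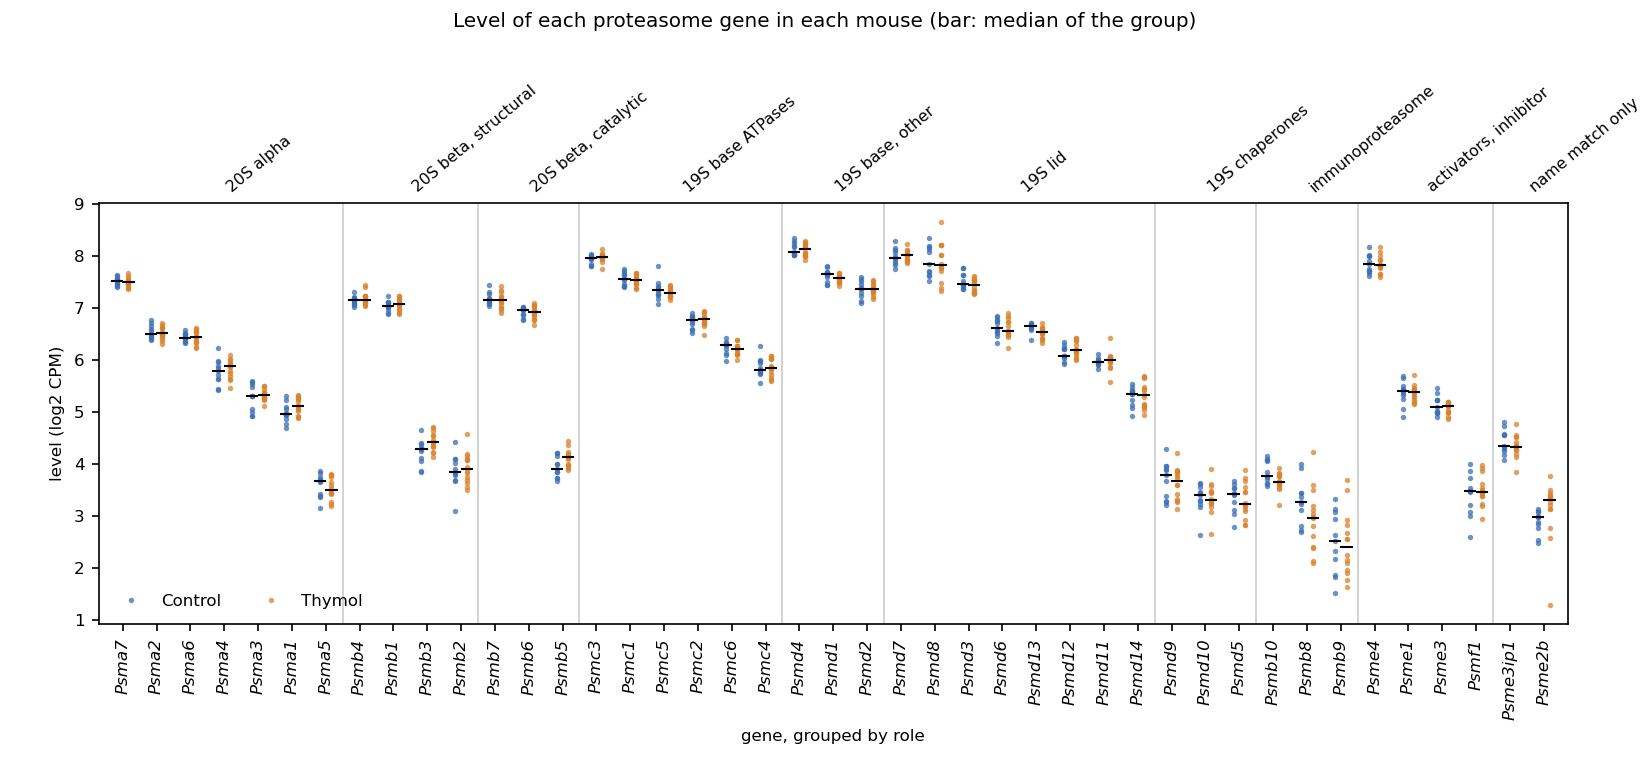
Level of each of the 43 genes (log2 CPM, vertical axis) in each mouse, with genes grouped by role along the horizontal axis, Control in blue and Thymol in orange, and a bar for the median of each group. The groups overlap for every gene, and the means run from 2.48 (Psmb9) to 8.12 (Psmd4).

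The cutting subunits showed the contrast between constitutive and immune forms. Psmb6 (caspase-like activity) had 6.77 as lowest, 6.96 as median and 7.02 as highest log2 CPM in Control, and 6.67, 6.92 and 7.09 in Thymol. Psmb7 (trypsin-like activity) had 7.04, 7.15 and 7.44 in Control, and 6.91, 7.14 and 7.41 in Thymol. Psmb5 (chymotrypsin-like activity), with its shared 3′ end, had 3.67, 3.90 and 4.22 in Control, and 3.88, 4.13 and 4.44 in Thymol.

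Their immune counterparts were low and more scattered. Psmb8 had 2.69, 3.27 and 3.99 log2 CPM in Control and 2.09, 2.97 and 4.23 in Thymol, Thymol 28 being the highest mouse. Psmb9 had 1.52, 2.52 and 3.33 in Control and 1.64, 2.40 and 3.69 in Thymol, with Thymol 28 and Thymol 20 on top. Psmb10 had 3.58, 3.78 and 4.16 in Control and 3.22, 3.65 and 3.93 in Thymol. Psmb9 rested on 15 to 126 reads per library and Psmb8 on 22 to 184.

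Set against its counterpart within each mouse, Psmb6 was 21.7-fold above Psmb9 in both groups (log2 ratio of Psmb9 to Psmb6 -4.44 ± 0.58 in Control, n = 11, and -4.44 ± 0.67 in Thymol, n = 14; SD). Psmb7 was 10.1-fold above Psmb10 in Control and 11.2-fold in Thymol (log2 ratios -3.33 ± 0.21 and -3.49 ± 0.26). The log2 ratio of Psmb8 to Psmb5 was -0.66 ± 0.51 in Control and -1.19 ± 0.63 in Thymol. It ran from -1.32 to 0.25 in Control and from -2.03 to 0.24 in Thymol, so the groups overlapped, and since both genes also enter the comparison below it was not tested.

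Next, thymol was compared with control in a linear model over all 8829 genes (limma, empirical Bayes, Benjamini-Hochberg). No proteasome gene was called at an adjusted p under 0.05, and no gene of the table was (0% called). The smallest adjusted p among the proteasome genes was 0.999884. At an unadjusted p under 0.05 there were 4 proteasome genes among 312 genes in all (3.53% of those tested), and with voom on the recovered reads 3 proteasome genes and 304 genes in all. Of the 43, 17 had a higher and 26 a lower mean in Thymol, with a median log2 fold change of -0.01, beside a median of 0.00 over all genes, of which 4375 were higher.

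By role, 8 of 14 genes of the 20S core were higher and 6 lower (median log2 fold change 0.04), and 6 of 17 genes of the 19S cap were higher and 11 lower (median -0.01). All 4 structural beta subunits had higher means (0.04 to 0.21), and all 3 immunoproteasome subunits had lower means (-0.34 to -0.02), none past the adjusted threshold. The intervals bound what could have been missed. In 35 of the 43 genes, and in 29 of the 31 genes of core and cap, the 95% interval lay within a 1.25-fold change in either direction. For core and cap together the outermost bounds were 0.834-fold and 1.31-fold. None of the 3 immunoproteasome genes had an interval that narrow, their bounds reaching 0.595-fold and 1.36-fold.

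**Figure D2:**
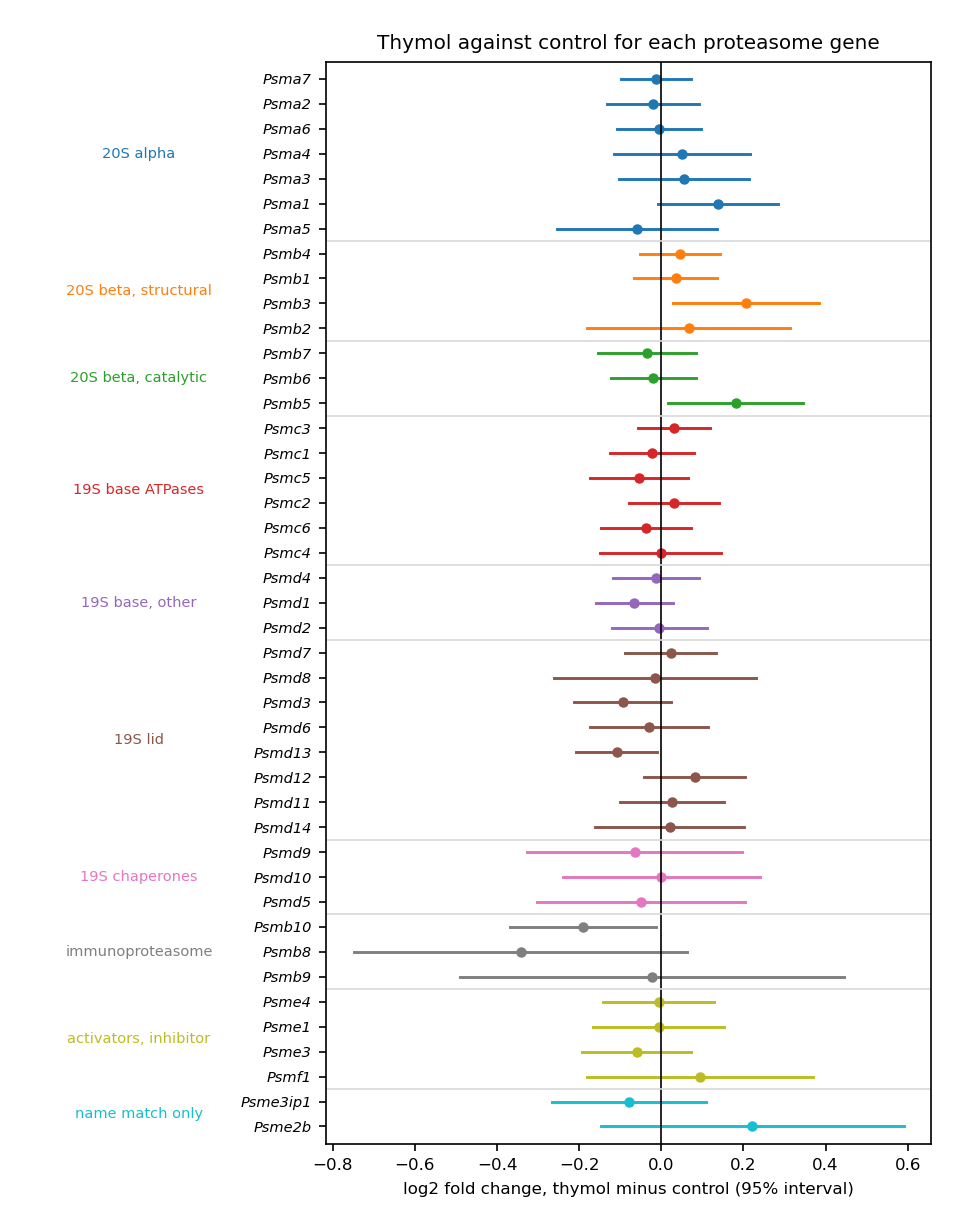
Log2 fold change of Thymol minus Control (horizontal axis) with its 95% interval for each of the 43 genes, coloured and grouped by role. The points lie between -0.34 (Psmb8) and 0.22 (Psme2b), and 4 intervals, those of Psmb3, Psmb5, Psmd13 and Psmb10, leave out 0 before adjustment over all genes.

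Those with the lowest p values were small shifts inside overlapping groups. Psmb3, a structural beta subunit, had 3.85, 4.29 and 4.66 log2 CPM as lowest, median and highest in Control and 4.13, 4.42 and 4.72 in Thymol. Its difference was 0.21 ± 0.09 (SE, limma, unadjusted p = 0.0246, adjusted p = 0.999884), and 11 of 14 Thymol mice lay above the Control median. Psmb5, whose values are given above, differed by 0.18 ± 0.08 (unadjusted p = 0.0331, limma), with 13 of 14 Thymol mice above the Control median. Both are among the genes with shared 3′ ends.

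Psmd13, a subunit of the lid, had 6.38, 6.64 and 6.71 in Control and 6.32, 6.53 and 6.70 in Thymol. It differed by -0.11 ± 0.05 (unadjusted p = 0.0323, limma) and was below the Control median in 13 of 14 Thymol mice. Psmb10 differed by -0.19 ± 0.09 (unadjusted p = 0.0370, limma), with 11 of 14 below. The next by p were Psma1 (0.14 ± 0.07), Psmd12 (0.08 ± 0.06) and Psme2b (0.22 ± 0.18) among the higher, and Psmb8 (-0.34 ± 0.20), Psmd3 (-0.09 ± 0.06) and Psmd1 (-0.07 ± 0.05) among the lower. Without Control 18, Control 19 and Thymol 20, 1 of the 43 genes stood at an unadjusted p under 0.05, beside 346 genes in all. Without Thymol 9 the difference of Psme2b was 0.36, and without the 3 mice that of Psmd12 was 0.05.

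Averaged over its members in each mouse, the 20S core had 5.67, 5.74 and 5.83 log2 CPM as lowest, median and highest in Control and 5.70, 5.80 and 5.90 in Thymol. The 19S cap had 6.89, 7.02 and 7.07 in Control and 6.87, 6.98 and 7.10 in Thymol. The cap exceeded the core by 1.25 ± 0.06 in Control and by 1.19 ± 0.06 in Thymol (log2, SD), with ranges of 1.15 to 1.32 and 1.07 to 1.28 that overlap. These averages carry no test, because a mean over chosen genes is not independent of the choice.

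The rest of the ubiquitin pathway was set beside them. Of 25 further genes (other subunits, assembly and shuttle factors) 8 were higher and 17 lower in Thymol, with none at an unadjusted p under 0.05. The core assembly chaperone Pomp (8.17 ± 0.18 in Control, 8.19 ± 0.14 in Thymol), the cap subunit Sem1 (6.57 ± 0.17 and 6.49 ± 0.13) and the proteasomal deubiquitinase Usp14 (5.42 ± 0.13 and 5.41 ± 0.14) lay within the spread of the mice. Among 19 muscle ubiquitin ligases 7 were higher and 12 lower, with 1 at an unadjusted p under 0.05. This was Stub1, the ligase CHIP that works with heat shock proteins (0.10 ± 0.05, unadjusted p = 0.0367, adjusted p = 0.999884, limma). All 5 genes of the FoxO and myostatin list, which act upstream of the atrophy ligases, had lower means (-0.22 to -0.02), none past either threshold. Of 17 genes of class I antigen presentation and interferon response 8 were higher and 9 lower (median -0.03).

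The spread between mice was described by role, with no test between roles. The SD between mice within groups had a median of 0.14 (log2) for the 31 genes of core and cap, 0.53 for the immunoproteasome subunits and 0.28 over all genes. Within the immunoproteasome Psmb10 had 0.19, against 0.53 for Psmb8 and 0.61 for Psmb9. The SD expected from counting alone was computed from the reads, and how much of these differences goes with the level was not tested. The SD between mice divided by this counting SD was 2.31 as a median for core and cap, 2.57 for the immunoproteasome subunits and 2.09 over all genes. Psmb10 had 1.31, the lowest of the 43. In genes above 6 log2 CPM, 21 genes of core and cap had a median SD of 0.12 against 0.16 for all 1431 such genes. Of the 21, 19 lay below that median and 14 below the first quartile of 0.13. This comparison was chosen after the data had been seen, and it carries no test.

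The steadiest was Psma7, an alpha ring subunit, with an SD of 0.08 and values from 7.37 to 7.66 log2 CPM in all mice. Only 2 genes of the whole table had a smaller SD. It was followed by the ATPase Psmc3 (0.08), the scaffold subunit Psmd1 (0.10), Psmd13 (0.10) and Psmb4 (0.10). At the other end were Psmb9 (0.61), Psmb8 (0.53), Psme2b (0.48), Psmf1 (0.34) and Psmd8 (0.33). For Psme2b, a single mouse, Thymol 9, had 1.30 log2 CPM from 16 reads while the others lay between 2.49 and 3.77.

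Psmd8, a lid subunit that helps to lock the cap in its assembled form, had the largest spread relative to counting. It had 1131 to 3226 reads per library and a counting SD of 0.04, so that its SD was 9.43 times the counting SD, the largest ratio among the 43, and its cause was not tested. In Control its lowest, median and highest levels were 7.51, 7.84 and 8.33 log2 CPM, and in Thymol 7.32, 7.82 and 8.65. The groups overlapped over most of this range (difference -0.02 ± 0.12, adjusted p = 0.999884, limma). Its 3′ end shared no word with another gene. Of the 1431 genes above 6 log2 CPM, 106 (7.41%) had a larger SD. On GRCm38 the gene lies on the minus strand of chromosome 7, from 29174188 to 29180701, with no overlapping gene in GENCODE M21.

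**Figure D3:**
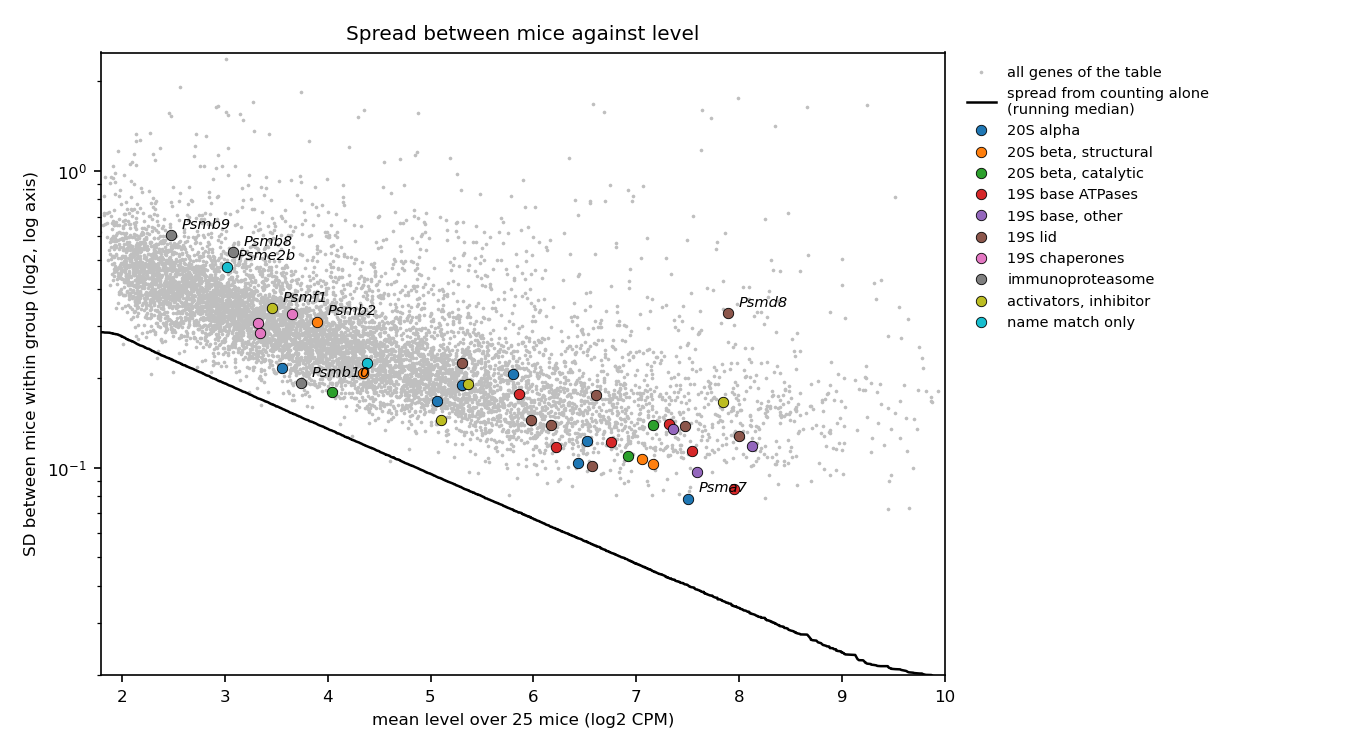
SD between mice within groups (log2, vertical log axis) against mean level (log2 CPM, drawn up to 10) for all genes in grey and the 43 proteasome genes coloured by role, with the spread expected from counting as a black line. Most genes of core and cap run along the lower edge of the cloud, Psma7 lowest at 0.08, while Psmd8 sits at 0.33 near a level of 7.89.

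Whether subunits of one particle moved together from mouse to mouse was described with Pearson correlations after the mean of each group had been removed. The correlations were positive more often than not but small. The median r was 0.11 ± 0.07 within the 20S core (91 pairs, 59 positive), 0.13 ± 0.07 within the 19S cap (136 pairs, 94 positive) and 0.12 ± 0.08 between core and cap (238 pairs, 163 positive), where the error is a jackknife SE over the 25 mice. Over all pairs of genes in the table the median r was 0.00, with 49.8% positive. Between the constitutive genes and the immunoproteasome subunits it was -0.01 ± 0.07 (93 pairs, 45 positive). The pairs share mice, library scaling and counting error, so they are no independent observations.

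Within the alpha ring the median was 0.01 (21 pairs), and within the beta ring 0.17, with 19 of 21 pairs positive. The 19S base had 0.15 and the lid 0.09. Among the 21 genes of core and cap above 6 log2 CPM the median was 0.16, against 0.02 for all pairs of genes at that level. When only genes with no shared 3′ word were kept, an alternative chosen after seeing the data, the median was 0.21 within the core and 0.23 between core and cap. In Control mice alone the median between core and cap was 0.03.

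Single pairs were stronger in both directions. The highest r was that of Psmb7, a cutting subunit, with the ATPase Psmc4 (r = 0.71, rho = 0.68, and r = 0.60 without the 2 mice farthest from the median of Psmb7). Psmd4 and Psmd8 came next (r = 0.66, rho = 0.59, and 0.61 without 2 mice), then Psmb8 and Psmb9 (r = 0.62, rho = 0.59, and 0.45 without 2 mice). The lowest were Psmb2 with Psmd7 (r = -0.69, rho = -0.64), Psmd12 with Psme1 (r = -0.59, rho = -0.63) and Psmd1 with Psmb2 (r = -0.58, rho = -0.45). Each kept its sign in Control and in Thymol taken alone, which adds no support because the pairs were picked from these same mice. No p is given because the pairs were picked from 903.

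**Figure D4:**
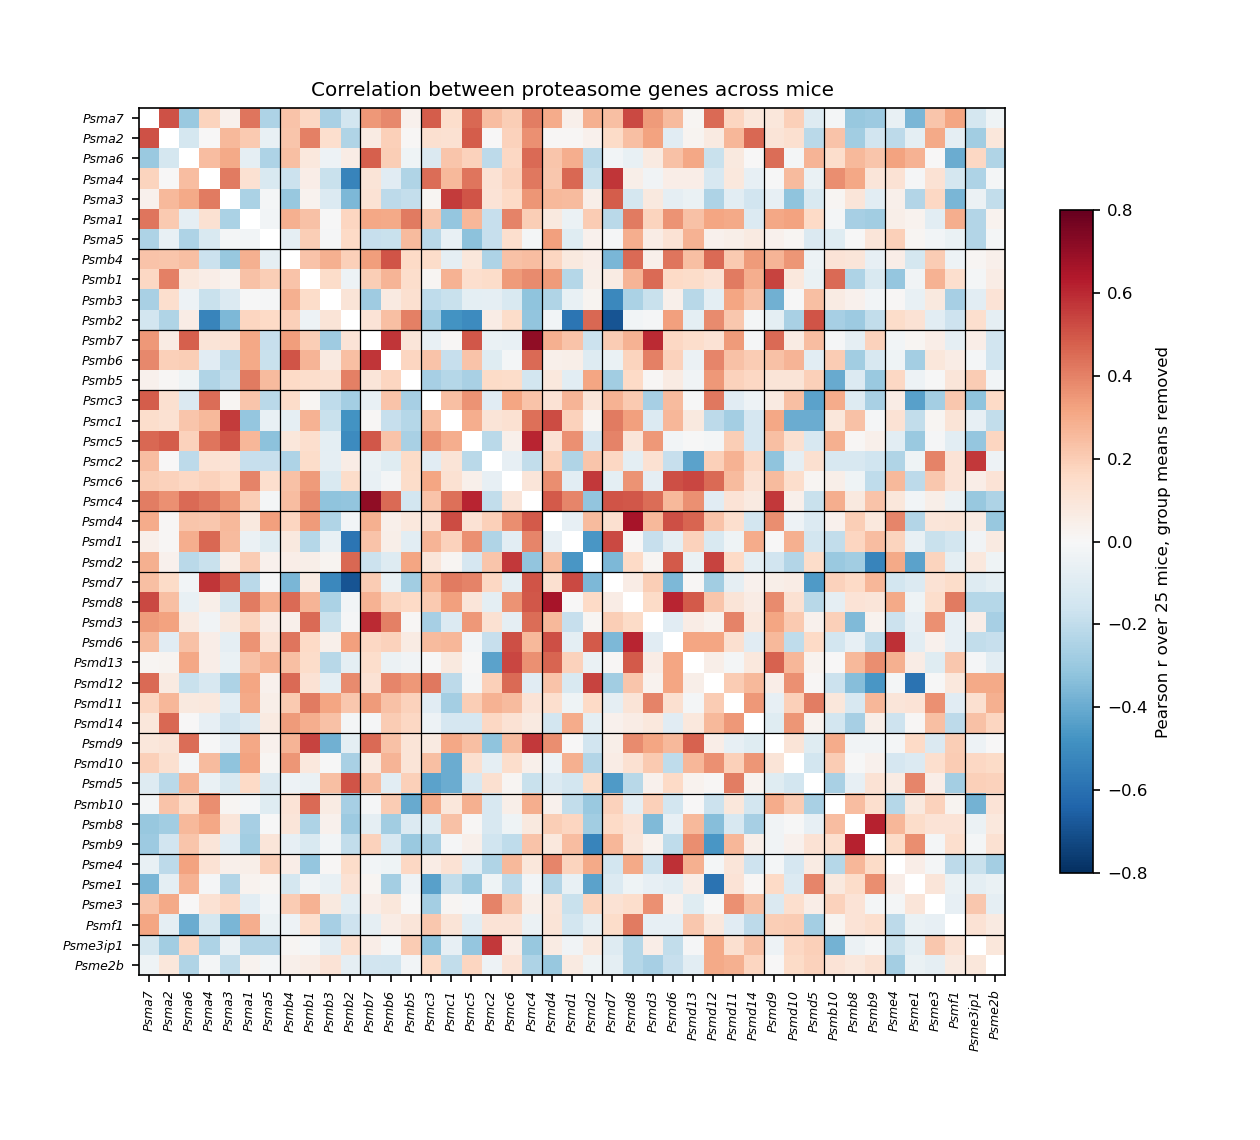
Pearson r between each pair of the 43 genes over 25 mice with group means removed, as colour from blue (negative) to red (positive), with genes on both axes ordered by role and lines between roles. The squares of core and cap are a mixture leaning to red (medians 0.11 to 0.13), and the strongest square off the diagonal is that of Psmb7 and Psmc4 (0.71).

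The averages of core and cap in each mouse went together with r = 0.54 and rho = 0.50 (n = 25 mice, group means removed), and with r = 0.47 without the 2 mice farthest from the median of the core. Within groups r was 0.34 in Control and 0.63 in Thymol. Makeup and depth of the samples were set beside these averages. The mean of the fast fibre markers had r = 0.33 with the core and 0.41 with the cap, the slow fibre markers -0.29 and -0.37, the leukocyte markers -0.33 and -0.11, and log2 depth -0.07 and -0.21 (0.03 and 0.05 without the 2 mice of most extreme depth). Without the 2 mice of most extreme leukocyte level the r of those markers became -0.67 with the core and -0.46 with the cap, and without the 2 of most extreme slow fibre level the r of the slow fibre markers became 0.04 and -0.12. Within groups the r of log2 depth with the core was -0.19 in Control and 0.03 in Thymol, and with the cap -0.63 and 0.16. The part of makeup and depth in the correlation of core and cap was not tested.

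Outside the proteasome, the 10 genes closest to the average of core and cap were Enpp5 (r = 0.70), Tubg1 (0.69), Pfdn1 (0.67), Chmp4b (0.66), Uckl1os (0.66), Rtn4 (0.65), Rpl36al (0.65), Dusp3 (0.65), Zbtb18 (0.65) and Serinc2 (0.65), each over 25 mice. Tubg1 encodes gamma-tubulin, Pfdn1 a subunit of the prefoldin chaperone, and Chmp4b a subunit of the ESCRT-III membrane scission complex. They were picked as the top of the whole table and carry no p.

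The atrophy ligases were then used as a measure of the state of each muscle. Fbxo32 had 7.93, 8.48 and 9.09 log2 CPM as lowest, median and highest in Control and 8.27, 8.66 and 8.96 in Thymol. Trim63 had 7.69, 7.91 and 8.48 in Control and 7.50, 7.96 and 8.15 in Thymol. Neither passed the test between groups (0.09 ± 0.10 and -0.00 ± 0.07, both adjusted p = 0.999884, limma), and with group means removed they moved together with r = 0.47 and rho = 0.34 (0.53 without 2 mice).

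The proteasome genes showed no called relation to either ligase. For each gene a slope was fitted, the log2 change per unit of log2 change in the ligase, with treatment in the model. With Fbxo32, 84 of 8828 genes passed the adjusted threshold (0.952%), of which none was a proteasome gene, and 4 proteasome genes stood at an unadjusted p under 0.05 (12.7% of all genes did). Without the 3 mice that stand apart no gene of the table passed, and 1 proteasome gene stood at an unadjusted p under 0.05 beside 697 genes in all. With all mice 4405 of 8828 slopes were positive over all genes, with a median of 0.00. Of the 43 slopes 14 were positive and 29 negative, with a median of -0.04. This lean was not stable, with 21 positive without Control 1 (median -0.00), 19 without Thymol 20 (median -0.01), 18 without Control 18 (median -0.02) and 21 without the 3 mice that stand apart (median -0.00). Without Control 18 alone, 2 genes of the table passed with a positive and 10 with a negative slope. When libraries were centred on their medians 23 were positive and the median was 0.00, while that of all genes was 0.04. With Trim63, no gene passed (0%), and 1 proteasome gene stood at an unadjusted p under 0.05 (7.79% of all genes). Over all genes 4457 of 8828 slopes were positive, with a median of 0.00. Of the 43, 30 were positive, with a median of 0.07. As each mouse was left out, the count ran from 25 without Thymol 11 (median 0.06) to 32 without Control 14 (median 0.06). Without the 3 mice that stand apart 29 of the 43 were positive (median 0.11). In that fit 1 proteasome gene stood at an unadjusted p under 0.05, beside 339 genes in all. Voom called 5 genes with Trim63 and no proteasome gene.

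By name, the slopes on Fbxo32 with the smallest p were positive for the ATPase Psmc2 (0.25 ± 0.09, unadjusted p = 0.00981, adjusted p = 0.192, limma), the scaffold Psmd2 (0.22 ± 0.10) and Psme3ip1 (0.31 ± 0.16). They were negative for the ATPases Psmc4 (-0.27 ± 0.12) and Psmc5 (-0.21 ± 0.10) and for Psmb6 (-0.18 ± 0.09). Without Control 18 the slopes of Psmc4 and Psmc5 were -0.17 and -0.06, and without the 3 mice that stand apart -0.15 and -0.13. With Trim63 the slopes named by the same rule were those of Psmd8 (0.78 ± 0.31, unadjusted p = 0.0179, adjusted p = 0.533, limma), Psmf1 (0.72 ± 0.36) and Psme2b (0.76 ± 0.49), and on the negative side Psmb6 (-0.21 ± 0.14), Psme4 (-0.28 ± 0.18) and Psmb10 (-0.25 ± 0.24). Single mice moved several of these. The slope of Psmf1 was 0.45 without Control 19, 0.47 without Control 31 and 1.26 without Thymol 11, that of Psme2b 0.42 without Thymol 9 and 1.15 without Thymol 11, and that of Psmb10 -0.15 without Control 19. The averages of core and cap had r = -0.07 and 0.02 with Fbxo32, and r = -0.07 and 0.30 with Trim63, the last falling to 0.10 without 2 mice.

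Whether these slopes differed between groups was tested as an interaction. None of the 43 passed for either ligase, and no gene of the table did (0% for both, with 4.16% and 5.06% of genes at an unadjusted p under 0.05). At an unadjusted p under 0.05 there were 2 proteasome genes for Fbxo32 and 2 for Trim63. The smallest adjusted p was 0.995 and 0.972 (limma).

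Nrf1, which the gene Nfe2l1 encodes, is controlled mostly at the level of its protein, so its transcript is an incomplete measure. Nfe2l1 had 7.76, 8.22 and 8.42 log2 CPM in Control and 7.94, 8.25 and 8.50 in Thymol. With its level as the covariate 2 genes of the table passed (0.0227%), neither of them a proteasome gene. At an unadjusted p under 0.05 there were 5 proteasome genes, all with positive slopes, beside 12.3% of all genes. They were Psma5 (0.70 ± 0.27, unadjusted p = 0.0163, adjusted p = 0.299, limma), Psmd6 (0.50 ± 0.20), Psmd8 (0.82 ± 0.35), Psmd2 (0.37 ± 0.17) and Psmc6 (0.33 ± 0.16). The most negative by p were Psmc5 (-0.31 ± 0.18), Psmd7 (-0.23 ± 0.17) and Psmc4 (-0.30 ± 0.22). All 3 turned positive without Control 18 (0.06, 0.00 and 0.02), and without the 3 mice that stand apart 1 of the 43 genes stood at an unadjusted p under 0.05, beside 664 genes in all, and no gene of the table passed. Psmd6 then had 0.23, and without Control 18 alone Psmd2 had 0.24. With all mice 4373 of 8828 slopes were positive over all genes, with a median of -0.01. Of the 43 slopes 27 were positive, with a median of 0.08. Without Thymol 20, 22 were positive (median 0.03), and without Control 18, 35 were (median 0.17).

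Nrf1 acts through antioxidant response elements, and so the 250 bases before the RefSeq start of each gene were searched on both strands for TGACNNNGC. Windows were at hand for 37 of the 43 genes, and 5 of them held the motif, beside 11.5% of 27025 genes. These 5 stretches are shown because they hold the motif of the factor tested above, with the match in capitals, each read 5′ to 3′ on the strand of its gene (RefSeq, GRCm38.p6).
Psmb6, plus strand, chr11:70525323-70525356: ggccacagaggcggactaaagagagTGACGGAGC
Psmd12, plus strand, chr11:107479278-107479314: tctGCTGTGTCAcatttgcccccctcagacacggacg
Psmc6, plus strand, chr14:45329574-45329630: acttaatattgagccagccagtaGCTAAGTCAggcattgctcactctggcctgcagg
Psmb5, minus strand, chr14:54618009-54618067: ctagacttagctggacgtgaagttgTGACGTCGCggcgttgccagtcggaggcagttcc
Psmd9, plus strand, chr5:123228134-123228189: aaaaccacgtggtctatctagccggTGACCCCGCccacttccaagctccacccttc

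In Psmb6, Psmb5 and Psmd9 the motif reads as written and begins 9, 47 and 31 bases before the start. In Psmd12 and Psmc6 it reads on the other strand and begins 247 and 227 bases before it. The slopes of these genes on Nfe2l1 were 0.34 ± 0.18 (Psmd12), 0.33 ± 0.16 (Psmc6), 0.25 ± 0.25 (Psmb5), -0.01 ± 0.16 (Psmb6) and -0.40 ± 0.40 (Psmd9), so both signs occurred among genes with a match. Without the 3 mice that stand apart the slopes of Psmd12, Psmb5 and Psmd9 were 0.14, 0.11 and -0.70. Psmb5 had 0.15 without Control 15 and 0.13 without Control 18, and Psmd9 -0.13 without Thymol 3. In the same windows CCAAT occurred in 14 of 37 genes (37.5% of all genes), the interferon-stimulated response element GAAANNGAAA in 3 (3.46%) and the FoxO motif TGTTTAC in 0 (3.54%). The 3 were Psmd4, Psmd9 and Psmb3, and the windows of Psmb8, Psmb9 and Psmb10 held no GAAANNGAAA. For Psmb8 and Psmb9 the window lay inside the span of the gene in GENCODE M21. This also held for other windows, among them that of Psmd9, whose stretch is shown above. A match is a run of letters, and says nothing of binding.

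**Figure D5:**
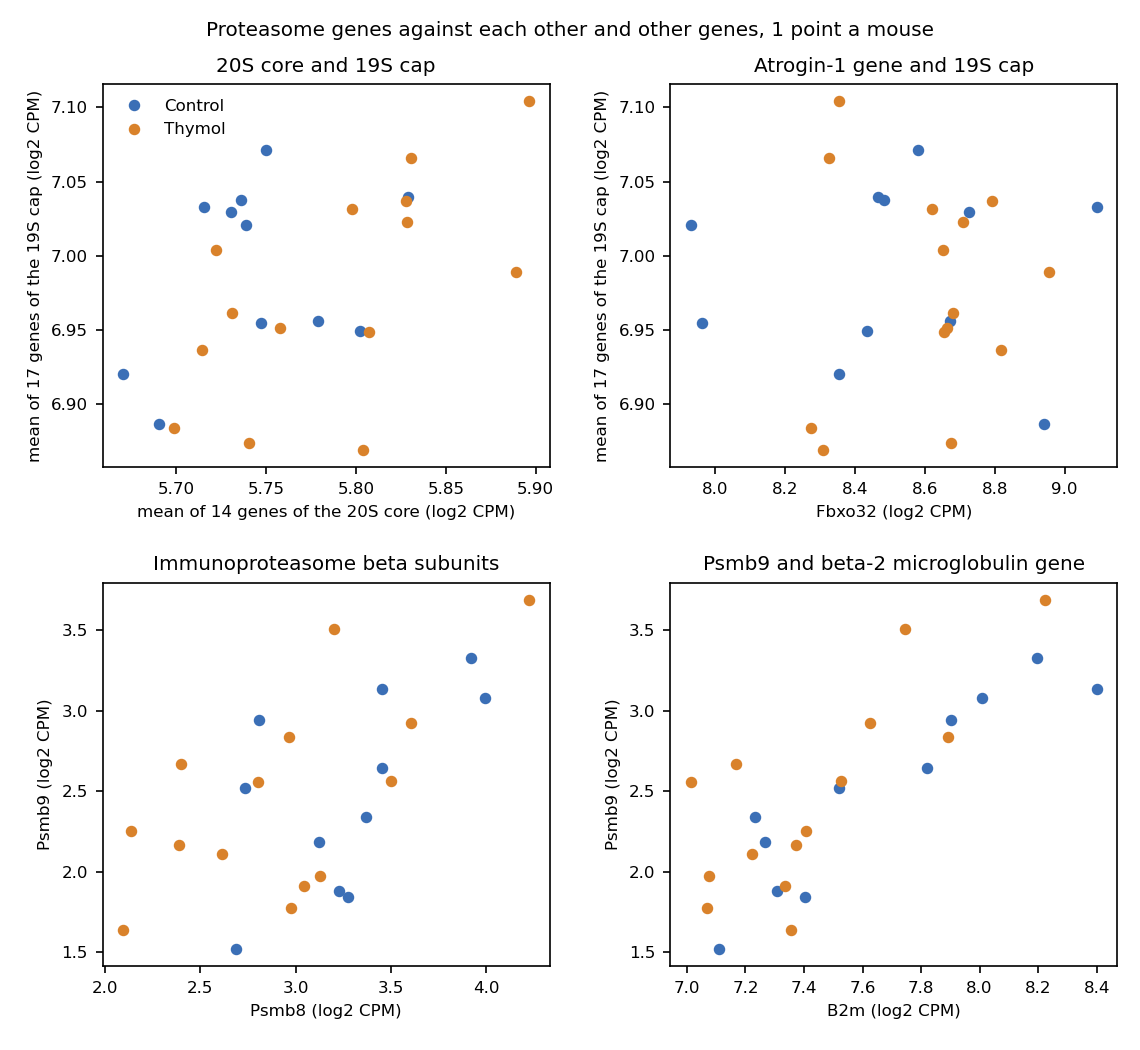
Each point is a mouse, Control in blue and Thymol in orange, with log2 CPM on all axes: the mean of the core against that of the cap, Fbxo32 against the cap, Psmb8 against Psmb9, and B2m against Psmb9. Core and cap rise together (r = 0.54 with group means removed), Fbxo32 and the cap do not (r = 0.02), and Psmb9 rises with Psmb8 (r = 0.62) and with B2m (r = 0.83).

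Psmb8 and Psmb9 varied between mice with the genes of antigen presentation, and Psmb10 did so weakly and not in both groups. Psmb8 and Psmb9 lie close together on chromosome 17 (34197721 to 34201454, plus strand, and 34181987 to 34187764, minus strand, GRCm38), and Psmb9 overlaps Tap1 on the other strand. Psmb9 had r = 0.83 with B2m, the light chain of class I molecules (rho = 0.77, and 0.79 without 2 mice, with 0.91 in Control and 0.76 in Thymol). With the class I heavy chain genes H2-K1 and H2-D1 its r was 0.64 and 0.49. Psmb8 had r = 0.57 with B2m, 0.62 with H2-D1 and 0.39 with H2-K1 (0.25 without 2 mice). Psmb10, on chromosome 8, had 0.18 with B2m, 0.12 with H2-K1 and 0.01 with H2-D1. In the same order its r was 0.42, 0.44 and 0.25 in Control, and -0.12, -0.31 and -0.24 in Thymol.

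Of 31 listed genes of class I presentation and interferon response, 17 were in the table, and Tap1 was not among them. Over these 17 genes the median r was 0.42 for Psmb9 (16 positive), 0.39 for Psmb8 (15 positive) and 0.17 for Psmb10 (16 positive). For the constitutive counterparts it was -0.12 (Psmb6, 5 positive), -0.28 (Psmb5, 0 positive) and -0.01 (Psmb7, 7 positive). The PA28 subunit Psme1, also inducible by interferon, had a median of 0.06 (11 positive). Among the 17, B2m had the highest r with Psmb9 (0.83) and H2-D1 with Psmb8 (0.62). Erap1 had the lowest with both (-0.04 and -0.27). These are descriptions over 25 mice and share library scaling. No difference between the medians was tested.

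Leukocyte markers moved with them. All 12 leukocyte markers correlated positively with Psmb9 (median r 0.49, from 0.34 to 0.56), with Psmb8 (median 0.34) and with Psmb10 (median 0.30). Of the constitutive counterparts, Psmb6 and Psmb7 each had 10 of the 12 positive (medians 0.16 and 0.17), and Psmb5 had none (median -0.50). The mean of these markers was 2.65 to 5.18 log2 CPM in Control and 2.99 to 4.66 in Thymol. Fitted as a covariate, it had 369 genes past the adjusted threshold (4.19%), none of them a proteasome gene, and 6 proteasome genes at an unadjusted p under 0.05 beside 18% of all genes. Of the 43 slopes 23 were positive, beside 4284 of 8817 over all genes. Without the 3 mice that stand apart 14 of the 43 were positive, beside 4269 over all genes. In that fit 131 genes of the table passed with a positive and 19 with a negative slope.

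The nearest to the threshold was Psmb9, with a slope of 0.54 ± 0.17 per unit of the marker mean (unadjusted p = 0.00333, adjusted p = 0.0668, limma). Its adjusted p was 0.0260 with voom, 0.0454 without Thymol 6 and 0.0321 without Control 23. Over all alternatives run its adjusted p ranged from 0.0260 to 0.327. Psmd2 (-0.13 ± 0.04, adjusted p = 0.0758, limma) and Psmb2 (-0.27 ± 0.09, adjusted p = 0.0890, limma) followed. Both passed without Thymol 20 (adjusted p = 0.0477 and 0.0246), and Psmd2 with libraries centred on their medians (0.0497). Psmb5 had -0.16 ± 0.06, and on the positive side Psmc5 had 0.12 ± 0.05 and Psmd1 0.08 ± 0.04. Without Control 18 the slopes of Psmb2 and Psmc5 were -0.18 and 0.04. Whether Psmb9 transcripts came from leukocytes or from fibres in the same tissue was not tested.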

How the data were processed

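Gastrocnemius RNA of 25 SAMP8 mice was sequenced with QuantSeq 3′ FWD libraries. The authors mapped reads to GRCm38 with STAR 2.5.3 and counted them per gene with HTSeq 0.6.1, as the processing notes name them, filtered low genes and scaled by TMM. The deposited values are log2 CPM per gene and mouse, with an offset of 2 reads. The strand setting of the count was not given in the sources used here. Whole reads were recovered from the values (100% whole within 0.01 of a read, 0 reads at -1.90), giving 4463818 to 9463418 reads per mouse (median 7503259). No molecular identifiers are described for these PCR-amplified libraries, so counting errors cover counting only.

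Groups followed the treatment named in the labels. The test was limma 3.58.1 (R 4.3.3), with trended empirical Bayes moderation, two-sided p and Benjamini-Hochberg adjustment over all genes, and a threshold of 0.05. The covariate fits added Fbxo32, Trim63, Nfe2l1 or the mean of the 12 leukocyte markers to treatment, with the covariate's own genes left out. The design named voom, not a count model, for recovered reads because the deposited unit is log2. The counting SD was the Poisson SD of log2(reads + 2). Correlations used numpy 2.4.6 and scipy 1.17.1, and figures matplotlib 3.10.9. The code was tested on simulated data. Positions are from GENCODE M21, promoters from RefSeq (GRCm38.p6).

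Genes were named by rule: the 5 smallest p in each direction for thymol, the highest and lowest of each role, the 5 largest and smallest spreads, the 3 highest and lowest pairs, the 3 smallest p in each direction per slope, the 10 genes most like the mean of core and cap, and pathway genes at an unadjusted p under 0.05. Cutting subunits, activators, PI31, the ligases and Nfe2l1 were named by role. Pomp, Sem1, Usp14, B2m, H2-K1, H2-D1, Psmb1 and the genes with a motif match fall outside this rule and were chosen after their values were seen. Genes and lists were chosen with earlier results of these data known. Alternatives were quantile normalization, median centring, only the upper 75% of genes by mean, a replicate block, voom, a prior count of 5, Spearman correlation, group means kept, single groups, depth removed, and leaving out each mouse. Leaving out 3 mice and genes with shared 3′ ends were added after seeing the data.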

Additional observations from a re-analysis of the deposited data

How the results depend on the processing

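The counts of called proteasome genes stayed at 0 for thymol, Fbxo32, Trim63 and Nfe2l1 under every alternative run, each mouse left out included. With the leukocyte markers the count was 1 under median centring (Psmd2), 1 with voom (Psmb9), and 0 to 2 as each mouse was left out. The counts at an unadjusted p under 0.05 were less stable, at 1 to 5 for thymol as each mouse was left out (1 without Control 27, and 2 without Control 18, Control 19, Control 35 or Thymol 7), and at 1 each for thymol, Fbxo32 and Nfe2l1 without the 3 mice that stand apart. The median r was 0.08 to 0.13 within the core, 0.10 to 0.18 within the cap, 0.08 to 0.14 between them and -0.04 to 0.02 with the immunoproteasome subunits as each mouse was left out. Between core and cap it was 0.0297 in Control mice only, and with no shared 3′ words it was 0.23 (0.21 within the core). The cause was not tested. Slopes on Nfe2l1 ran from -0.403 to 0.0648 for Psmc5, from -0.323 to 0.00124 for Psmd7 and from -0.438 to 0.0194 for Psmc4 as each mouse was left out, positive without Control 18, and that of Psmd7 was 0.13 without the 3 mice.

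First label numbers shared between groups did not pair the mice: 9 pairs with the same number had a mean r of -0.00 (from -0.18 to 0.10) between deviations from group means. As a replicate block they left 0 proteasome genes called in all 5 fits and 1, 1, 0, 0 and 4 at an unadjusted p under 0.05 for thymol, Fbxo32, Trim63, Nfe2l1 and the leukocyte markers, beside 282, 746, 577, 840 and 1172 genes in all. The block left 8 residual degrees of freedom for thymol and 7 for the slopes, against 23 and 22 without it. With so few, a count of 0 there carries little weight. Intervals were wide for genes such as Psmb9 (median 41 reads), whose SD between mice was 0.61 beside a counting SD of 0.24. Psmb10, with a median of 93 reads, had an SD between mice of 0.19. Changes smaller than the interval of a gene were not detectable.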

Other observations

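Vcp, which encodes the p97 ATPase that hands unfolded ubiquitinated proteins to the proteasome, had a split distribution. In 7 mice (5 Control and 2 Thymol) it had 6.29 to 6.79 log2 CPM, from 482 to 889 reads, and in the other 18 mice (6 Control and 12 Thymol) 1.23 to 3.36 log2 CPM, from 16 to 77 reads, with no mouse between. Control mice averaged 4.33 ± 2.20 and Thymol mice 3.28 ± 1.51 log2 CPM (± SD), a difference of -1.06 ± 0.65 (SE, unadjusted p = 0.117, adjusted p = 0.999884, limma). A mean describes neither set of mice, and the cause of the split was not tested, whether in the animals or in mapping and counting. Vcp was singled out after its values were seen.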
